A study of Mus musculus with 4 samples.

Results

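Basement membrane components and the integrins that bind matrix were followed as a set of 44 genes in bulge stem cells of mouse hair follicles. Members were the named genes that the platform annotation gives a probe set row of their own, and all 44 had exactly 1 such row, out of 19935 genes named by 21780 rows. They fall into 11 integrin subunits, 9 laminin chains, 9 collagen chains, 5 genes grouped here as nidogen and perlecan with their partners agrin and dystroglycan, 4 genes of the Fras/Frem group and 6 genes of focal adhesions and hemidesmosomes.

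Male mice of the CD-1 strain gave the cells. They were 56 days old (postnatal day 56), a time of the second telogen, when hair follicles rest. One group had CSA at 100 mg/kg, injected into the peritoneum for 3 days before collection, and the other had vehicle by the same route and for the same time. The labels leave CSA as an abbreviation; the series title names calcineurin, and cyclosporine A, the drug usually shortened this way, inhibits that phosphatase. Cells of both groups were sorted for CD34 together with alpha6 integrin, each group gave 2 samples that the design text calls biological replicates, and how many mice entered a sample is not stated. Each sample was read on 1 one-colour array, and this number of arrays limits the precision of every value here.

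A basement membrane is a thin sheet of matrix on which epithelial cells sit. Laminin trimers and a collagen IV network form its layers, nidogens and the proteoglycans perlecan and agrin link those layers, and integrins in the cell membrane bind the sheet and pass the grip on to actin through focal adhesions or to keratin through hemidesmosomes. Bulge stem cells rest on such a membrane, and several of the genes below, among them Col17a1 and Itgb1, are known from mouse work as needed to keep skin stem cells anchored.

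Values are the authors' own, on a log scale taken as log2, and each row was set by the authors against a baseline that is not stated. A value of 0 therefore means the baseline and not absence, levels cannot be compared between genes, and a difference of 1 stands for 2-fold if the base is 2. Over all rows naming 1 gene CSA arrays had medians of 0.01 and -0.02 and vehicle arrays of 0.06 and -0.02. Arrays of 1 group did not consistently resemble each other more than arrays of different groups. Over all rows, which are not independent replicates, Pearson's r was 0.06 between both CSA arrays and 0.17 between both vehicle arrays. Rows were centred by the authors, so r leaves out differences in level between genes and cannot be read like r of uncentred values. Between groups, r was highest for CSA replicate 2 with vehicle replicate 2, at 0.52. It was 0.10 for CSA replicate 1 with vehicle replicate 1 and 0.16 with vehicle replicate 2, and 0.02 for CSA replicate 2 with vehicle replicate 1. Among the markers of the sort, Cd34 was lower in CSA without overlap between the groups. The difference was -1.47, with an unadjusted p of 0.092 by limma's moderated test. Cd34 was above the baseline on all arrays, at 1.75 and 3.60 in CSA against 4.05 and 4.25 in vehicle. Itga6 was at -0.70 and -0.53 in CSA against -0.9995 and 0.08 in vehicle, so the groups overlapped.

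Most of the 44 genes had lower means in CSA than in vehicle, by small amounts. The mean was lower in CSA for 35 genes and higher for 9, with a median difference of -0.19. Of all rows, 58.0% were lower and 42.0% higher, with a median of -0.04. None of the 44 passed the test: limma's moderated test gave every member an adjusted p of 0.999, and it called 0 of 21780 rows (0.00%). At an unadjusted p under 0.05 limma gave 4 members, all lower in CSA, namely Frem2, Lama3, Itgb1 and Lamb3. The same level was reached by 646 of all rows (2.97%), 231 of them lower (1.06%) and 415 higher (1.91%) in CSA. The members were chosen with earlier results of these arrays known, so these counts are descriptions and no independent evidence of a direction.

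Without overlap between the groups, 17 members were lower in CSA, against 15.2% of all rows, and 1 was higher, Itgb5, against 11.3% of all rows. With a difference of at least 1.5-fold as well, 4 members were lower in CSA (Frem2, Plec, Lama3 and Lamb2), against 2.11% of all rows, and 0 were higher, against 4.16%; in either direction 6.28% of all rows met this rule, and 26.5% did not overlap. The difference exceeded both gaps between replicates, that of the CSA pair and that of the vehicle pair, for 12 members lower in CSA (8.37% of all rows) and for 1 higher (6.46%), 13 in all (14.8%). Over the members the median size of the difference was 0.21, and the median gap was 0.20 between the CSA arrays and 0.25 between the vehicle arrays. Over all rows the median size of the difference was 0.16, and the gaps were 0.23 and 0.27.

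**Figure D1:**
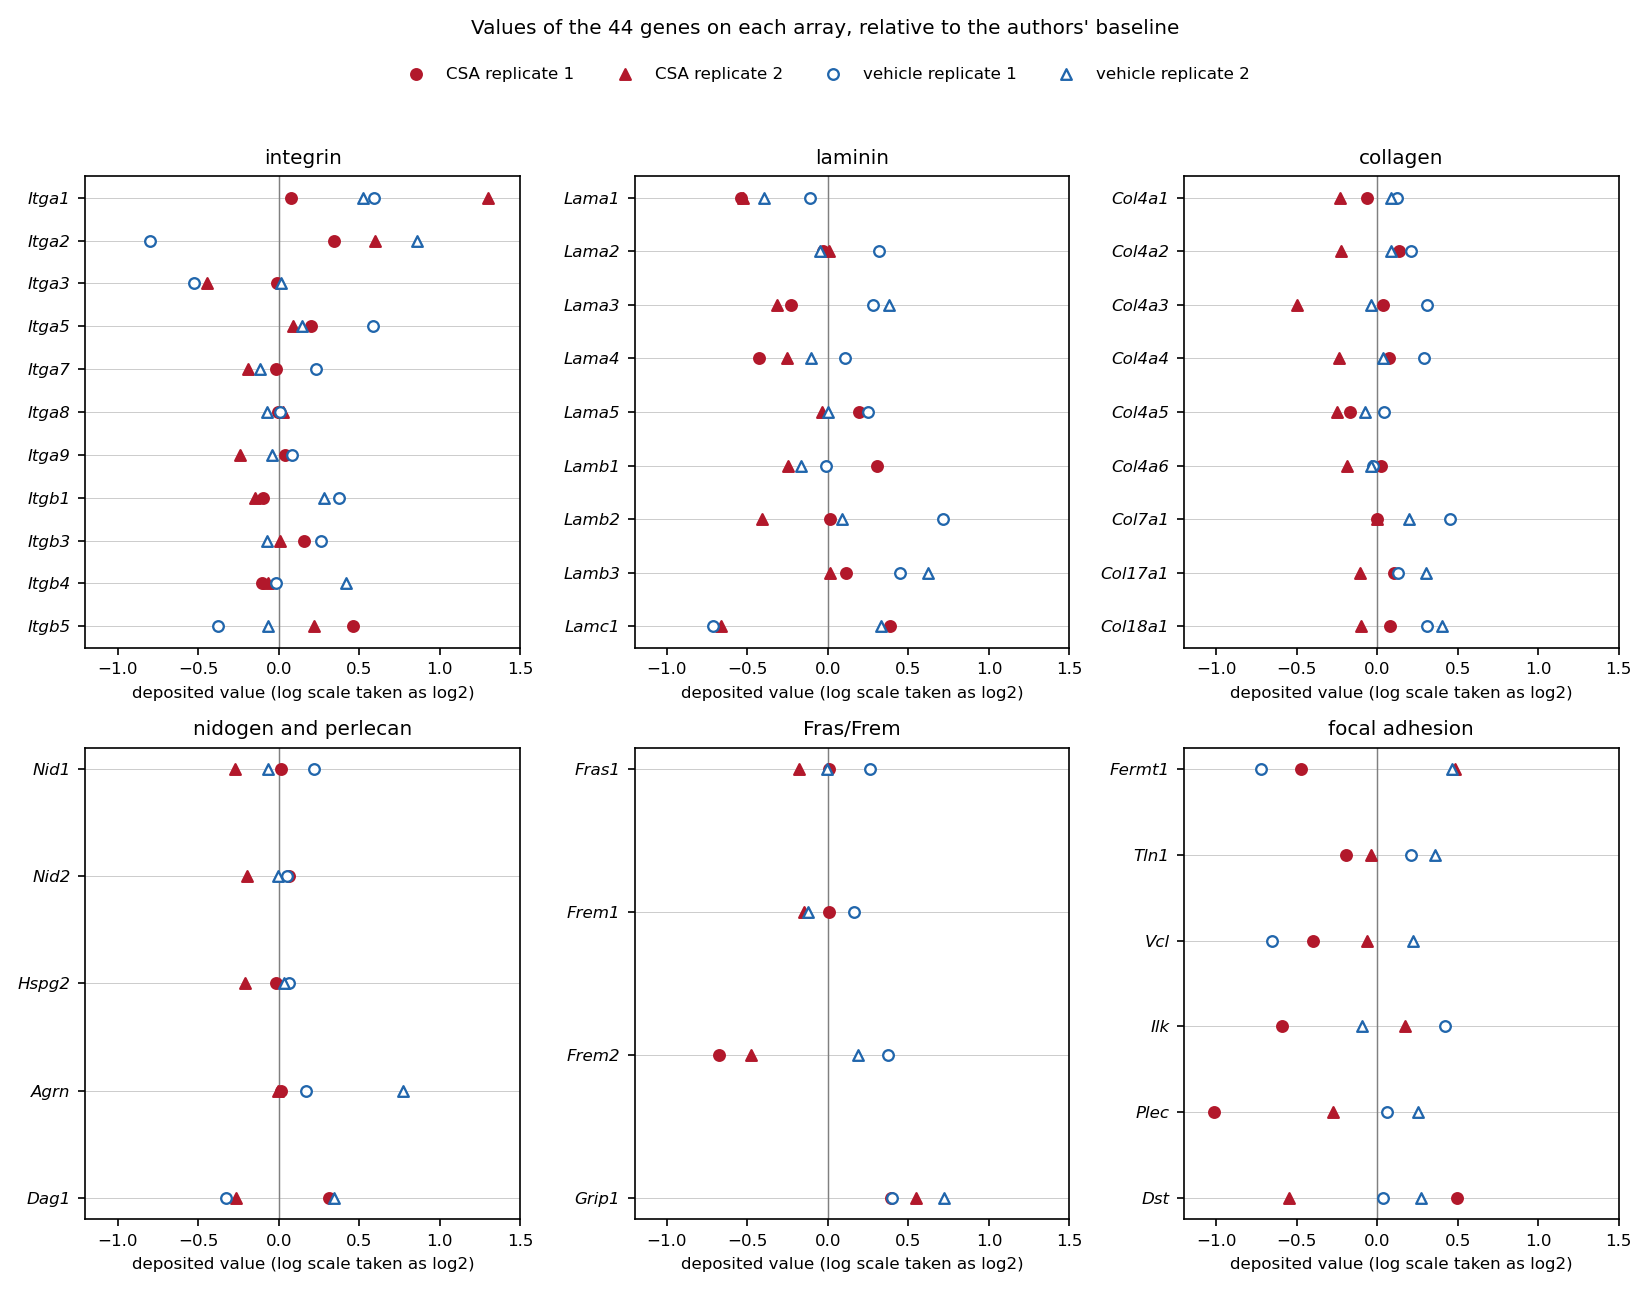
Deposited value of each of the 44 genes on each of the 4 arrays (log scale taken as log2, 0 is the authors' baseline), by class. Filled red symbols are CSA, open blue symbols are vehicle, circles are replicate 1 and triangles replicate 2. For Frem2, Lama3, Lamb3 and Itgb1 both red symbols lie left of both blue ones with a clear space between, while for Itga1, Itga2, Lamc1, Fermt1 and Dst the replicates of a group lie far apart.

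The integrins did not move one way. Of 11 subunit genes 6 were lower and 5 higher in CSA, with a median of -0.01 that was 0.01 with each array centred on its median and -0.10 after quantile normalization. Itgb1 encodes the beta subunit shared by most matrix integrins. It stood at -0.10 and -0.15 in CSA against 0.38 and 0.28 in vehicle. Both CSA arrays were below both vehicle arrays, and the pairs were tight, so that the difference of -0.45 ± 0.16 (± gives the standard error that limma moderates over all rows, here and below, from 2 arrays in each group) was larger than either gap between replicates. Its unadjusted p in limma was 0.0426, and its adjusted p was 0.999.

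Itgb5, whose product pairs with alpha v and binds vitronectin, went the other way, at 0.46 and 0.22 in CSA against -0.37 and -0.07 in vehicle. Both CSA arrays were above both vehicle arrays. The difference was 0.56 ± 0.20, a 1.48-fold higher mean in CSA and just under the 1.5-fold line, with an unadjusted limma p of 0.0511. Itgb4, the beta subunit of hemidesmosomes, was at -0.10 and -0.06 in CSA against -0.02 and 0.42 in vehicle. The groups did not overlap, but the space between them was narrow and vehicle replicate 2 alone stood high, and the difference of -0.28 ± 0.22 was -0.06 without that array. Itgb3, which also encodes a partner of alpha v, differed by -0.01 ± 0.20 with overlapping groups.

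Among the alpha subunits every pair of groups overlapped. Itga2, a collagen receptor subunit, was at 0.35 and 0.60 in CSA against -0.80 and 0.86 in vehicle. The vehicle arrays lay on either side of both CSA arrays, and the difference of 0.44 ± 0.61 turned to -0.39 when vehicle replicate 1 was left out. Itga1, also a collagen receptor subunit, was at 0.08 and 1.30 in CSA against 0.59 and 0.53 in vehicle, so that here the CSA arrays lay on either side, and a difference of 0.13 ± 0.45 turned to -0.48 when CSA replicate 2 was left out. Itga5, of the fibronectin receptor, differed by -0.22 ± 0.22, and vehicle replicate 1 (0.59) stood above the other 3 arrays, which lay between 0.09 and 0.20. The laminin receptor subunit genes Itga3 and Itga7 differed by 0.03 ± 0.29 and -0.16 ± 0.20, Itga9, a receptor subunit for tenascin, by -0.12 ± 0.18 and Itga8, which binds nephronectin, by 0.04 ± 0.15. Itga8 stayed between -0.07 and 0.02 on all 4 arrays.

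Itgb4, also lower in CSA without overlap, had no promoter window. The promoter windows of Itgb1 (lower in CSA) and Itgb5 (higher in CSA), genes picked for their differences, are shown side by side. They are RefSeq windows of build GRCm38.p6 that run from 250 bases before to 50 after an annotated gene start, Itgb1 at chr8:128685404-128685703 (plus strand) and Itgb5 at chr16:33829415-33829714 (plus strand). Capitals mark GGAAA, the core that NFAT factors bind, on either strand (TTTCC is its other strand).
Itgb1: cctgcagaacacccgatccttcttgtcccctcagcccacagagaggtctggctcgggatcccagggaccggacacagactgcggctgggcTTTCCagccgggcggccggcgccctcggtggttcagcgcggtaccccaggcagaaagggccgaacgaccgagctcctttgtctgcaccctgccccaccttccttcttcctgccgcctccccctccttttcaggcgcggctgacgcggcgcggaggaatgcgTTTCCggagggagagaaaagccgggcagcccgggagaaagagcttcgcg
Itgb5: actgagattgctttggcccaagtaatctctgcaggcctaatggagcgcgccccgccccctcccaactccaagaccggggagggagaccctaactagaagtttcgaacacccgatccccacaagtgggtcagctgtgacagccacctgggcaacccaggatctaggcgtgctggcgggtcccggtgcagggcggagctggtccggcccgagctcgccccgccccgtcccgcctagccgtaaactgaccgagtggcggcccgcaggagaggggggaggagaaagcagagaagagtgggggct
The Itgb1 window holds the core at 2 places and the Itgb5 window at 0. Such cores are common: 61.3% of all 32851 windows of this length hold at least 1, and so did 24 of 43 windows (55.8%) found for 33 of the 44 members. The GC box GGGCGG, on either strand, was in 26 of the 43 member windows (60.5%) and in 35.7% of all windows, once for Itgb1 and at 3 places for Itgb5. A match says only that these letters are present.

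Laminin genes were lower in CSA for 7 of 9 members, with a median of -0.28. For 5 of the 9 the groups did not overlap, all lower, against 15.2% of all rows. Lama3 and Lamb3 encode the alpha and beta chains of the laminin that anchors epidermis to dermis. Lama3 was at -0.23 and -0.32 in CSA against 0.28 and 0.38 in vehicle. The gap was 0.09 between the CSA arrays and 0.10 between the vehicle arrays, and the groups lay well apart, with a difference of -0.60 ± 0.16, a 1.52-fold higher mean in vehicle, and an unadjusted limma p of 0.0184 (adjusted 0.999). Lamb3 was at 0.11 and 0.01 in CSA against 0.45 and 0.62 in vehicle. It parted the same way, with a difference of -0.47 ± 0.17 and an unadjusted limma p of 0.0465. With any 1 array left out the difference stayed between -0.65 and -0.55 for Lama3 and between -0.56 and -0.39 for Lamb3.

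Lamb2, a beta chain best known from kidney and the neuromuscular junction, was at 0.01 and -0.41 in CSA against 0.72 and 0.09 in vehicle. The groups did not overlap, but CSA replicate 1 and vehicle replicate 2 nearly met, and the difference of -0.60 ± 0.31 became -0.29 when vehicle replicate 1 was left out and -0.92 when vehicle replicate 2 was. Lama4, an alpha chain of vessel and fat basement membranes, was at -0.43 and -0.26 in CSA against 0.11 and -0.11 in vehicle, a difference of -0.34 ± 0.18. Lama1, an alpha chain of embryonic basement membranes, was below the baseline on all 4 arrays and differed by -0.28 ± 0.18. It was the 1 member of the 44 below the baseline throughout.

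For the remaining laminin chains the groups overlapped. Lamc1, the gamma chain common to most laminins, was at 0.38 and -0.66 in CSA against -0.72 and 0.33 in vehicle. Each group had 1 high and 1 low array, 1.05 apart in CSA and 1.04 in vehicle, and the difference was 0.05 ± 0.54 (-0.22 after quantile normalization). Lama5, the main alpha chain of adult epithelia, differed by -0.05 ± 0.19, Lama2, the alpha chain of muscle and nerve, by -0.15 ± 0.20 and Lamb1 by 0.12 ± 0.25.

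All 9 collagen genes had lower means in CSA, with a median of -0.24, and their differences lay between -0.37 and -0.05. None reached 1.5-fold. The groups did not overlap for 5 of them (Col4a1, Col4a5, Col7a1, Col17a1 and Col18a1), all lower, against 15.2% of all rows. CSA replicate 2 was the lowest array for 8 of the 9 and vehicle replicate 1 the highest for 6, where over all rows CSA replicate 2 was lowest in 32.3% and vehicle replicate 1 highest in 42.4%. Without CSA replicate 2 the class median was -0.11, and without CSA replicate 1 it was -0.33.

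The collagen IV genes lie in the genome as pairs that start close together and run apart, and their chains form the network of the basement membrane. Col4a1 was at -0.06 and -0.23 in CSA against 0.12 and 0.09 in vehicle, and its neighbour Col4a2 at 0.13 and -0.22 in CSA against 0.21 and 0.09 in vehicle. On both genes CSA replicate 2 was the lowest array and vehicle replicate 1 the highest, and the differences were -0.25 ± 0.16 and -0.19 ± 0.20. Col4a3 and Col4a4, the second pair, differed by -0.37 ± 0.27 and -0.24 ± 0.21, with the same order of all 4 arrays in both genes: vehicle replicate 1, CSA replicate 1, vehicle replicate 2, CSA replicate 2 from high to low. Col4a5 and Col4a6, the X-linked pair, differed by -0.20 ± 0.16 and -0.05 ± 0.17. With 4 arrays no correlation within a pair was computed.

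The first pair is shown by its promoter windows, since they share sequence. The RefSeq windows on GRCm38.p6 are chr8:11312777-11313076 on the minus strand for Col4a1 and chr8:11312555-11312854 on the plus strand for Col4a2, and they have 78 bases in common, read from opposite strands. Capitals again mark GGAAA on either strand.
Col4a1: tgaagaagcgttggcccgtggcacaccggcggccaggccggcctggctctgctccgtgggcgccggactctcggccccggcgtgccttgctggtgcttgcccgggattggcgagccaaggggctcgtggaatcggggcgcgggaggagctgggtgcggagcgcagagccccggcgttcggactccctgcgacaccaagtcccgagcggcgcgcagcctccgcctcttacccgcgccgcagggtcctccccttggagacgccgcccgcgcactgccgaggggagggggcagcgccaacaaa
Col4a2: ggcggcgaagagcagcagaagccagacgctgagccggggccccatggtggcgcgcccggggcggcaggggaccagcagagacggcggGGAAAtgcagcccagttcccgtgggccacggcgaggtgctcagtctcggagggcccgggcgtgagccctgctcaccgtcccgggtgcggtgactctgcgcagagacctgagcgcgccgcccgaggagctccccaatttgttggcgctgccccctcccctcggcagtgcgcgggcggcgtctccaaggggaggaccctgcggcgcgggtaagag
The core was at 0 places in the Col4a1 window and at 1 in the Col4a2 window, and the GC box at 1 and 3 places. The bases are G or C for 74.0% of the Col4a1 window and 73.7% of the Col4a2 window.

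The collagens outside the collagen IV family parted by similar amounts. Col17a1, a collagen that spans the cell membrane at hemidesmosomes, was at 0.11 and -0.11 in CSA against 0.13 and 0.30 in vehicle. CSA replicate 1 and vehicle replicate 1 all but touched, and the difference was -0.22 ± 0.18. Col7a1, which forms the anchoring fibrils below the membrane, was at -0.0014 and 0.0014 in CSA against 0.46 and 0.20 in vehicle, a difference of -0.33 ± 0.18. Col18a1, a basement membrane collagen that carries heparan sulfate, was at 0.08 and -0.10 in CSA against 0.31 and 0.40 in vehicle. The groups stood clear of each other, with a difference of -0.36 ± 0.17 and an unadjusted limma p of 0.094.

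**Figure D2:**
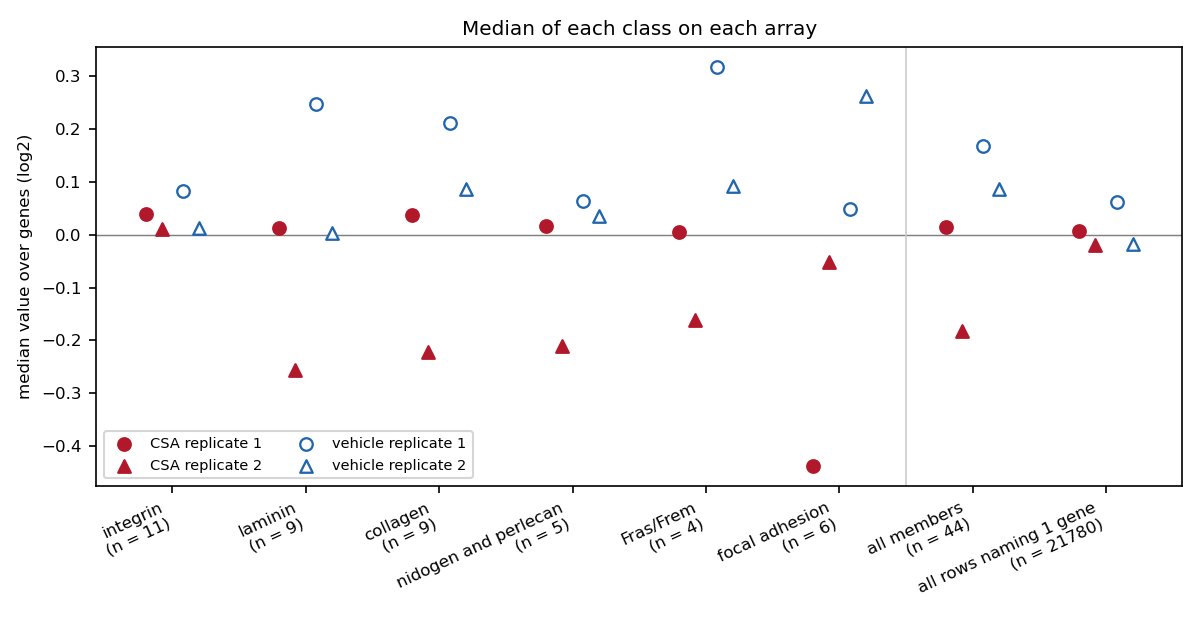
Median value of each class of genes on each array (log2), with the median of all 44 members and of all 21780 rows naming 1 gene at the right. Filled red symbols are CSA, open blue symbols are vehicle, circles are replicate 1 and triangles replicate 2. In the laminin class CSA replicate 1 (0.01) stood above vehicle replicate 2 (0.00), and CSA replicate 2 was the lowest array in every class but focal adhesion.

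Of the linkers of the membrane, 4 of 5 had lower means in CSA (median -0.16) and none was 1.5-fold apart. The median was -0.06 without CSA replicate 2 and -0.27 without CSA replicate 1. Agrn encodes agrin, a heparan sulfate proteoglycan. It was at 0.015 and -0.0054 in CSA against 0.17 and 0.77 in vehicle, and the difference of -0.47 ± 0.26 shrank to -0.16 when vehicle replicate 2 was left out. Hspg2, which encodes perlecan, was at -0.01 and -0.21 in CSA against 0.06 and 0.04 in vehicle, a narrow parting with a difference of -0.16 ± 0.17. The nidogen genes Nid1 and Nid2 differed by -0.20 ± 0.21 and -0.09 ± 0.18 with overlapping groups. Dag1 encodes dystroglycan, a laminin receptor outside the integrin family, and was at 0.31 and -0.26 in CSA against -0.33 and 0.35 in vehicle. As in Lamc1 each group held 1 high and 1 low array, and the difference was 0.02 ± 0.35.

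The Fras/Frem proteins form a complex under the epidermis whose loss in mice gives embryonic blisters. Frem2 had the lowest difference of the 44 genes. It was at -0.68 and -0.48 in CSA against 0.37 and 0.19 in vehicle. Both CSA arrays lay below the baseline and both vehicle arrays above it, with a difference of -0.86 ± 0.18, a 1.81-fold higher mean in vehicle, and an unadjusted limma p of 0.00832 (adjusted 0.999). Left-out arrays kept it between -0.96 and -0.76. Its partners stood nearer to vehicle: Fras1 was at 0.004 and -0.18 in CSA against 0.26 and -0.004 in vehicle (-0.21 ± 0.19), Frem1 differed by -0.09 ± 0.19, and Grip1, the scaffold that carries Fras1 and Frem2 to the cell surface, by -0.09 ± 0.20. Grip1 was above the baseline on all 4 arrays, at 0.39 and 0.55 in CSA against 0.40 and 0.72 in vehicle.

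As the member with the lowest difference, Frem2 is shown with its RefSeq promoter window, chr3:53657306-53657605 on the minus strand of GRCm38.p6, capitals marking GGAAA on either strand.
Frem2: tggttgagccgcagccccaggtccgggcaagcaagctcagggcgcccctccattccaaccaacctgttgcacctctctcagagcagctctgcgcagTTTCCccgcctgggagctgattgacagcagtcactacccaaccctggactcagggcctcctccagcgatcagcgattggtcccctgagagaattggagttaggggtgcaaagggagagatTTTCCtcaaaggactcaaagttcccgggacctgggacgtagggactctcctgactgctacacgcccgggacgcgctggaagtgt
The core was at 2 places in this window. CCAAT, on either strand, was also at 2 places, and 37.4% of all windows hold at least 1 such box.

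Inside the cell, 5 of 6 genes had lower means in CSA (median -0.28), and arrays of 1 group often disagreed. Leaving out CSA replicate 1 gave a median of -0.16, and leaving out vehicle replicate 1 gave -0.46. Plec encodes plectin, which ties hemidesmosomes to keratin. It was at -1.01 and -0.27 in CSA against 0.06 and 0.25 in vehicle. The groups did not overlap, and CSA replicate 1 stood far below the other arrays. Its difference was -0.80 ± 0.31 (unadjusted limma p 0.0597), and -0.43 when CSA replicate 1 was left out. Tln1, which encodes talin, the protein that switches integrins on from inside, was at -0.19 and -0.04 in CSA against 0.21 and 0.36 in vehicle. Both pairs were tight and apart, with a difference of -0.40 ± 0.17 and an unadjusted limma p of 0.0755.

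The other 4 genes of this class overlapped between groups. Fermt1, which encodes kindlin-1, a partner of talin that keratinocytes use, was at -0.47 and 0.48 in CSA against -0.72 and 0.47 in vehicle. Both arrays numbered replicate 1 were low and both numbered replicate 2 high, and the difference was 0.13 ± 0.56 (-0.01 after quantile normalization). Vcl, which encodes vinculin, differed by -0.01 ± 0.36, with arrays from -0.66 to 0.22 in vehicle alone. Ilk, which encodes integrin linked kinase, was at -0.59 and 0.17 in CSA against 0.42 and -0.09 in vehicle, and the difference of -0.37 ± 0.36 came to 0.01 when CSA replicate 1 was left out. Dst, which encodes another plakin of hemidesmosomes, was at 0.50 and -0.55 in CSA against 0.04 and 0.27 in vehicle (-0.18 ± 0.40).

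**Figure D3:**
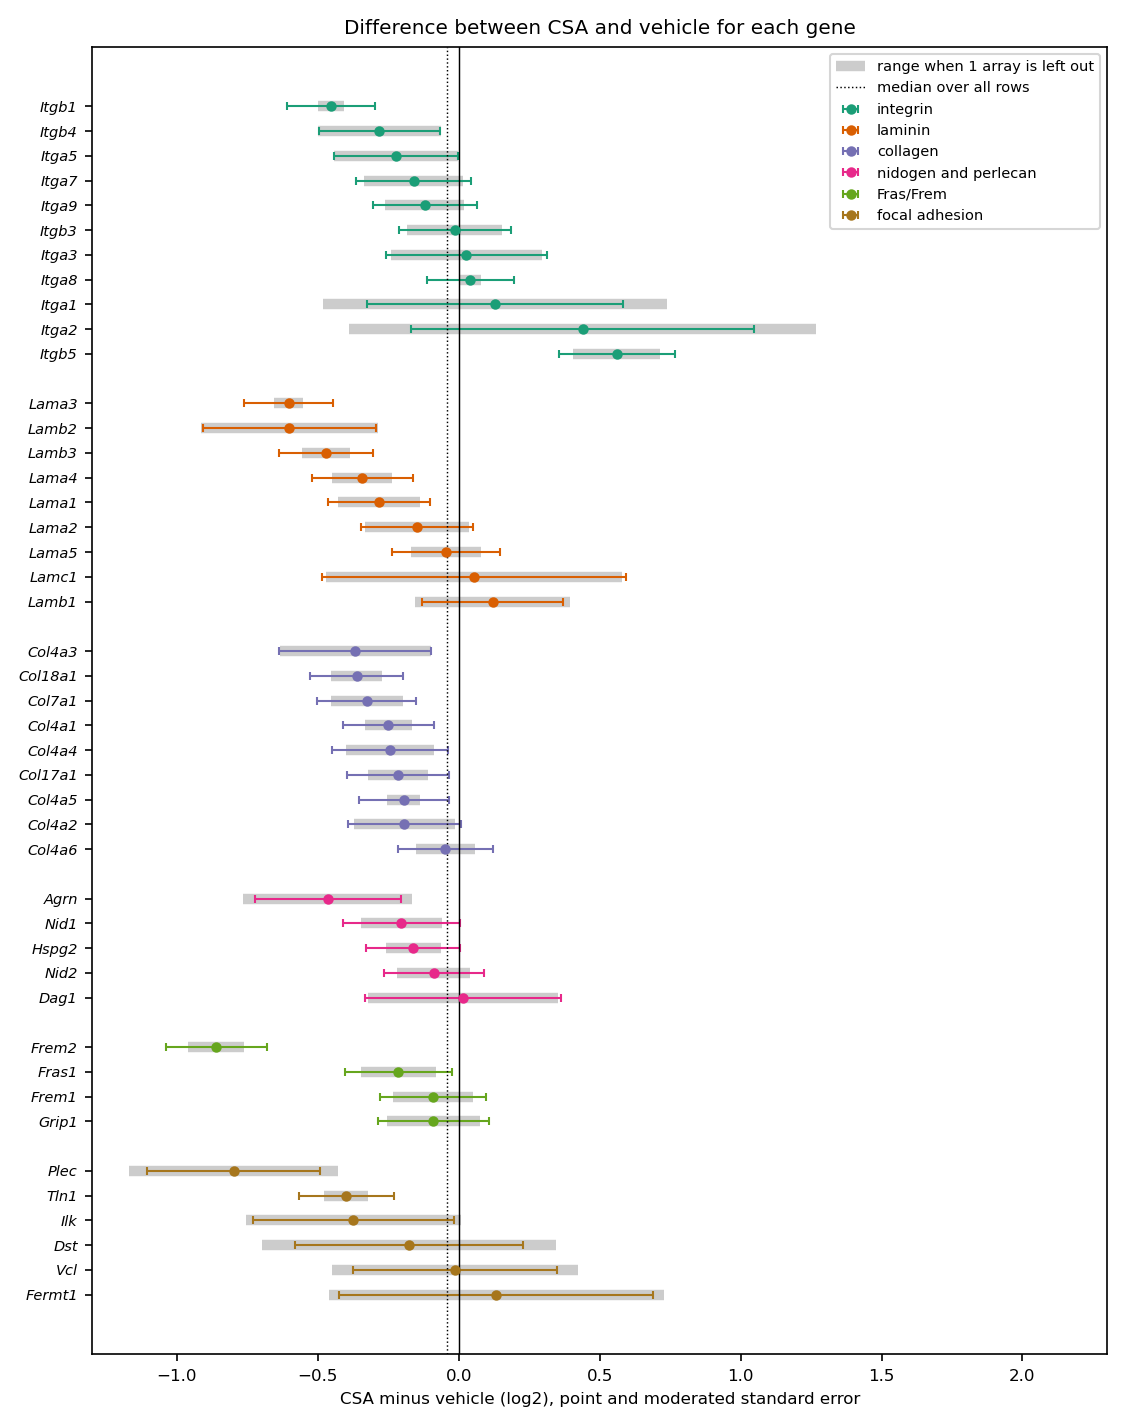
Difference between the CSA and vehicle means of each gene (log2, CSA minus vehicle) with limma's moderated standard error, by class; the grey bar spans the values when each of the 4 arrays is left out in turn, and the dotted line is the median over all rows. The difference was below 0 for 35 of 44 genes, and the grey bar crosses 0 for 19 of the 44, among them Itga1, Itga2, Lamc1 and Fermt1.

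**Figure D4:**
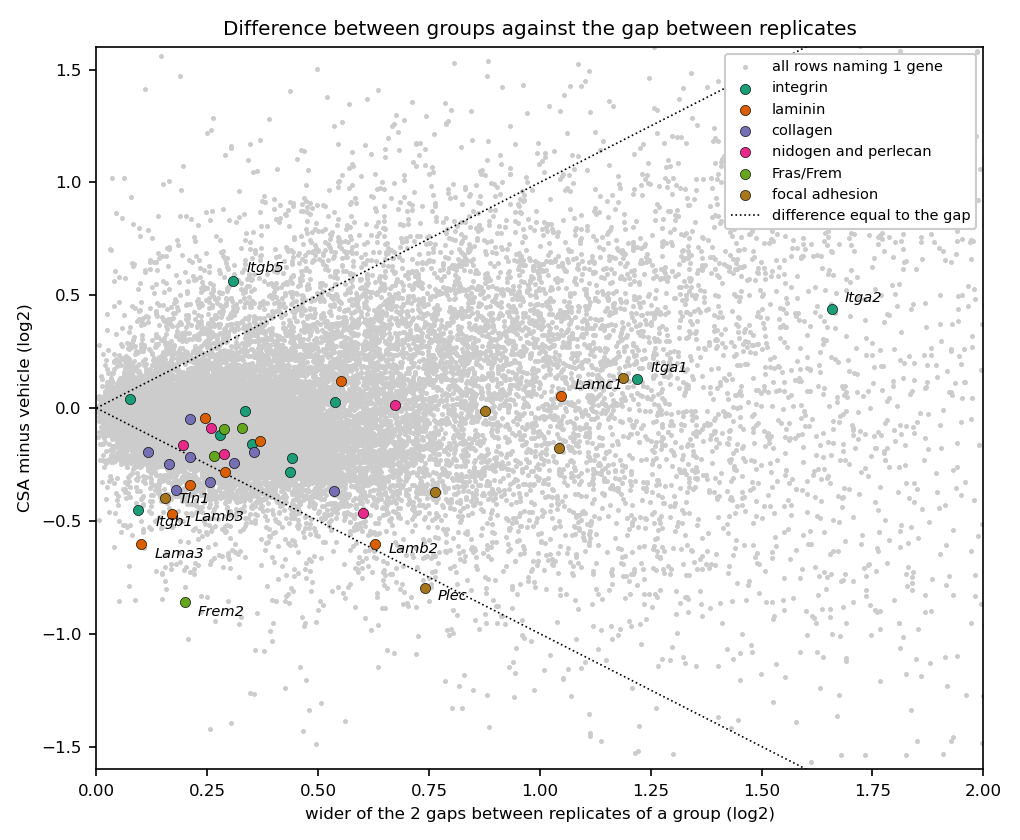
Difference between groups (log2, CSA minus vehicle) against the wider of the 2 gaps between replicates of a group (log2) for the 44 genes, by class, and in grey for all rows naming 1 gene; rows beyond the axes are not drawn. Points outside the dotted lines, 12 members below and 1 above (Itgb5), differed between groups by more than replicates did.

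The whole set can be read by array. Vehicle replicate 1 was the highest array for 22 of 44 genes (42.4% of all rows) and CSA replicate 2 the lowest for 24 (32.3% of all rows). Over the 44 genes, CSA arrays had medians of 0.01 and -0.18 and vehicle arrays of 0.17 and 0.09. Both CSA medians lay below both vehicle medians, as did those of the collagen, nidogen and perlecan, Fras/Frem and focal adhesion classes, but not those of the integrin and laminin classes. The median difference was -0.27 without CSA replicate 1, -0.14 without CSA replicate 2, -0.20 without vehicle replicate 1 and -0.24 without vehicle replicate 2, and between 31 and 37 members were lower in CSA. In the same order the median over all rows was -0.05, -0.03, 0.01 and -0.08. The share of all rows lower in CSA was then 57.7%, 55.3%, 47.6% and 60.7%. The sign held whichever array was left out for 25 members, 23 of them lower and 2 higher in CSA (Itgb5 and Itga8).

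Other genes of matrix adhesion were described from lists that hold no member. Of all rows, 58.0% were lower and 42.0% higher in CSA. An unadjusted limma p under 0.05 was reached by 2.97% of all rows, 1.06% lower and 1.91% higher. Of 7 further integrin subunit genes 6 were lower in CSA (median -0.18, and -0.37 without CSA replicate 1), with 2 at an unadjusted limma p under 0.05. Those were Itgb6 at -0.24 and 0.31 in CSA against 1.80 and 2.17 in vehicle, and its partner Itgav at -0.45 and -0.23 in CSA against 0.49 and 0.30 in vehicle. Of 17 rows for further basement membrane and matrix genes 15 were lower (median -0.31) and 0 reached that p. Among them Tnc, which encodes tenascin C, was at -0.24 and 0.76 in CSA against 1.16 and 2.27 in vehicle, Fbln2, which encodes fibulin 2, at 0.21 and -0.15 in CSA against 0.68 and 0.40 in vehicle, and Fbln1, which encodes fibulin 1, at -0.08 and 1.12 in CSA against 1.18 and 2.63 in vehicle. For these 3 genes both CSA arrays were below both vehicle arrays, as in 15.2% of all rows. The 28 rows for 23 further plaque and hemidesmosome genes went both ways, 18 lower and 10 higher (median -0.13, but -0.03 without CSA replicate 2 and -0.04 without vehicle replicate 2, none at that p), with the actin linker genes Actn1 at -0.72 ± 0.29 and Parva at -0.57 ± 0.24. Matrix proteases and their inhibitors had 10 of 16 rows higher (median 0.06, but -0.03 without CSA replicate 1, none at that p), with the metalloprotease genes Adam17 at -0.88 ± 0.46, Mmp2 at 0.64 ± 0.36 and Mmp14 at 0.55 ± 0.31.

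Markers of other skin cells were also mostly lower in CSA, where 58.0% of all rows were lower. Differentiated epidermis had lower values in CSA for 9 of 9 rows (median -1.02), with list medians of -0.90 and -0.30 in CSA against 0.52 and -0.32 in vehicle. Fibroblast markers were lower for 10 of 11 rows (median -0.15; array medians 0.03 and -0.01 in CSA, 0.11 and -0.04 in vehicle), and endothelial markers for 10 of 10 (median -0.15; 0.00 and -0.09 in CSA, 0.28 and -0.01 in vehicle). Pericyte and smooth muscle markers were lower for 8 of 8 rows (median -0.09), Schwann cell and melanocyte markers for 6 of 8 (median -0.20) and immune markers for 6 of 10 (median -0.08). The immune share was near that of all rows. The other 4 immune markers were higher in CSA, among them Cd3g at 0.79 ± 0.27, the largest moderated t of that list. Markers of the bulge itself were lower for 8 of 10 (median -0.33), with Postn at -0.79 ± 0.18, the largest moderated t of that list. The 2 higher in CSA were Tcf7l1 at 0.34 ± 0.33 and Nfatc1 at 0.09 ± 0.40. Postn, Cd200 and Cd34 were lower without overlap, as were 15.2% of all rows. For Lhx2, Sox9, Lgr5, Itga6 and Krt15 the groups overlapped. Leaving out CSA replicate 1 brought the bulge median to -0.03 and leaving out vehicle replicate 2 to -0.10, whereas it was -0.76 when CSA replicate 2 was left out and -0.63 when vehicle replicate 1 was. Without vehicle replicate 1 the medians were -0.36 for differentiated epidermis, -0.11 for fibroblasts, -0.02 for endothelial cells and -0.20 for the 44 members. Without vehicle replicate 2 they were -1.61, -0.30, -0.30 and -0.24 in the same order. Without CSA replicate 1 they were -0.79, -0.21, -0.21 and -0.27, and without CSA replicate 2 -1.18, -0.09, -0.07 and -0.14. The pericyte and smooth muscle median was 0.08 without CSA replicate 2 and -0.33 without CSA replicate 1, that of Schwann cells and melanocytes -0.06 without CSA replicate 2 and -0.08 without vehicle replicate 1, and that of immune cells 0.05 without vehicle replicate 1 and -0.20 without vehicle replicate 2. Values centred by row do not tell which markers are absent, and the part of other cells in the members' differences was not tested. In sorted bulk samples, fewer cells of a type and less RNA per cell cannot be told apart.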

How the data were processed

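Arrays with a single colour read RNA of 2 CSA and 2 vehicle samples; 20 ng of it was amplified once and biotin-labelled, per the labels' protocols. The deposited values are on a log scale taken as log2, centred by row on an unstated baseline. For software, background correction and normalization the sources used here give nothing, and a build, mm8, is all that the submitters' processing notes name. The base, centring and normalization stay unknown, and higher was taken as more RNA.

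Of 28815 rows, 21780 named 1 gene in the platform annotation, 1605 several and 5430 none. Rows were tested as deposited, each row apart, with limma 3.58.1 in R 4.3.3 (lmFit, eBayes without trend, no block), two-sided, with Benjamini-Hochberg adjustment over 21780 rows and a threshold of 0.05. The fit was also run on simulated arrays drawn with independent rows, which does not show how it performs on these arrays. Picking 1 row per gene by its centred mean would not pick the brightest. Members, classes, lists and tests were chosen with earlier results of these data known. Every member was described, with values per array for those of largest difference in a class, 1.5-fold apart or partners in a complex; other lists gave up to 3 genes of largest moderated t. Some listed genes were not analysed here. Alternatives were quantile normalization, array centring, a variance trend, the replicate number of the titles as a block, a filter on the mean (25th percentile), 1 row per gene, no moderation and each array left out.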

Additional observations from a re-analysis of the deposited data

How the results depend on the processing

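The count of rows at an adjusted p under 0.05 by limma was 0 under every alternative run, the test without moderation included. The members' median lay between -0.27 and -0.14 with 1 array left out and was -0.18 after quantile normalization. At an unadjusted p under 0.05, limma gave 1020 rows with the replicate number as a block, against 646 without it. Nothing in the labels says that a number pairs samples; deviations of same-numbered arrays from their group means correlated at 0.22 across rows, which are not independent. The block changed no call at an adjusted p under 0.05, but it changed the count of rows at an unadjusted p under 0.05. With 1 array left out that count ran from 475 to 1653, lowest without vehicle replicate 1 and highest without vehicle replicate 2, and the count 1.5-fold apart without overlap from 1825 to 3848. That fold count was 741 after the filter on the mean, which tests fewer rows (16335) and kept 36 of the 44 members. The filter acts on the centred mean, and among the members it dropped were Frem2 and Plec, which had the lowest differences. The integrin median was -0.068 with that filter, -0.10 after quantile normalization and between -0.19 and 0.018 with 1 array left out.

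Quantile normalization turned the sign of 6 members, giving Itga3 -0.17, Itgb3 0.045, Lama5 0.0048, Lamc1 -0.22, Dag1 -0.052 and Fermt1 -0.010. Centring the arrays gave Itgb3 0.012 and Vcl 0.013, also turned. With 1 array left out the difference of 19 members crossed 0, ranging for Itga1 from -0.48 to 0.74, Itga2 from -0.39 to 1.27, Itga3 from -0.24 to 0.30, Itga7 from -0.34 to 0.016, Itga9 from -0.26 to 0.018, Itgb3 from -0.18 to 0.15, Lama2 from -0.33 to 0.037, Lama5 from -0.17 to 0.077, Lamb1 from -0.16 to 0.40, Lamc1 from -0.47 to 0.58, Col4a6 from -0.15 to 0.057, Nid2 from -0.22 to 0.040, Dag1 from -0.32 to 0.35, Frem1 from -0.23 to 0.052, Grip1 from -0.25 to 0.074, Fermt1 from -0.46 to 0.73, Vcl from -0.45 to 0.42, Ilk from -0.76 to 0.0076 and Dst from -0.70 to 0.34. The cause of these turns was not tested. Signal over background was not available, so dim rows could not be told from bright ones.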
